A study of Mus musculus with 8 samples.

Results

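Transcripts of the respiratory chain and the ATP synthase were compared between livers of wild-type mice and mice carrying a knockout of Abhd15. The genes were taken by symbol: Nduf followed by a, b, c, s or v, Sdha to Sdhd, names that start with Uqcr, Cox4, Cox5, Cox6, Cox7, Cox8 or Atp5, and Cyc1 and Cycs. This gave 91 of the 22180 genes with a transcript cluster (a set of probes summarised together) of their own, and where a gene had several clusters the one with the highest mean stood for it. Genes were placed in complexes by symbol alone. Complex I had 34 genes, complex II 4, complex III 8 with Cyc1 counted there, complex IV 17 and the ATP synthase, or complex V, 17. This puts Ndufa4 and Ndufa4l2 in complex I by name only, and which complex their proteins belong to was not examined. Cycs, the 8 Ndufaf genes and 2 pseudogenes (Atp5c1-ps and Uqcrh-ps1) were also caught by the symbols. The Ndufaf genes encode assembly factors of complex I and not subunits, so they are described apart. Of 101 RefSeq genes with such symbols, pseudogenes aside, 12 had no cluster of their own, among them Cox6c, and enter no count. Apart from these counts, 10 clusters that the annotation gives to one of these symbols together with another gene were fitted with all 41345 clusters of the array, and they are not named because their gene is not settled. Their differences ran from -0.54 to 0.03 (smallest adjusted p 0.872 with limma). In 1 of the 10, at 10.33 in WT and 10.14 in KO, all KO arrays lay below all WT arrays (-0.19, SE 0.12). The same held for 2.38% of the 41345 clusters.

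The samples were livers of 8 male C57BL/6J mice on normal chow, 3 wild-type (WT) and 5 Abhd15 knockout (KO), with 1 Affymetrix Mouse Gene 2.0 ST array each. Abhd15 belongs to the alpha/beta hydrolase domain family. Per the design text the mice were 14 weeks old, went without food overnight and had chow back for 1 hour before the liver was taken, whereas in the sample labels 14 weeks is the longest time on chow. The labels do not state how the knockout was made, and p-values here measure the spread between these 8 samples. Abhd15 itself read 5.65, 5.81 and 5.46 in WT and 5.14, 5.04, 5.21, 5.18 and 5.04 in KO, with no overlap, a difference of -0.52 (SE 0.13, adjusted p = 0.795 with limma). A dimmer Abhd15 cluster read 4.11, 4.36 and 3.07 in WT and 2.55, 3.05, 3.03, 3.33 and 3.84 in KO, with overlapping groups and a difference of -0.68 (SE 0.32, adjusted p = 0.838 with limma). Where these probes lie relative to the altered part of the gene is unknown, so neither cluster settles the genotype of a sample.

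All values are log2 expression values as deposited. KO arrays 1 and 2 stood apart on the first principal component of all clusters (scores of 55.2 and 50.8, the next at 0.22), and KO array 4 on the second (70.0, the next at 10.6). KO array 5 lay near the WT arrays on both, at -25.6 on the first and -22.3 on the second. The WT arrays lay at -20.8 to -8.04 and at -24.4 to -22.1. Array medians lay between 2.99 and 3.05. The 7 hepatocyte markers, Alb and Hnf4a among them, had a summed level (log2 of the summed linear values) of 14.57 to 14.61 in WT and 14.47 to 14.69 in KO. The summed level of 6 macrophage markers was 8.59 to 9.19 in WT and 8.62 to 9.62 in KO, that of 5 endothelial markers 9.80 to 9.81 and 9.78 to 9.90, and that of 6 stellate cell markers 10.12 to 10.23 and 9.75 to 10.36. For 4 measured cholangiocyte markers it was 7.01 to 7.39 and 6.72 to 7.56, for 6 skeletal muscle markers 5.93 to 6.01 and 5.64 to 6.11, and for 5 adipocyte markers 5.22 to 5.49 and 5.18 to 5.38. Among erythroid markers 1 was measured, at 2.49 to 3.01 in WT and 2.81 to 3.26 in KO. Among all these single markers the groups did not overlap for 3, and 4.43% of all clusters with 1 gene symbol had no overlap in either direction. Lyve1, of the endothelium, was higher in KO by 0.65 (SE 0.16), while Lrat, of stellate cells, differed by -0.34 (SE 0.14) and the muscle gene Ckm by -0.54 (SE 0.18) at a mean of 3.36, each with an adjusted p of 0.795 in limma. The part of other cell types in the results was not tested, and in whole liver fewer cells of a type and less RNA per cell cannot be told apart.

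The respiratory chain passes electrons from NADH (complex I) and succinate (complex II) through ubiquinone, complex III and cytochrome c to oxygen at complex IV, and complexes I, III and IV pump protons across the inner mitochondrial membrane. The ATP synthase uses the returning protons to make ATP. Nearly all subunits come from nuclear genes, a few from mitochondrial DNA, and hepatocytes are rich in mitochondria because they oxidise fatty acids and make glucose and urea. The 13 mitochondrially encoded subunits were looked for by symbol, and 0 of them had a cluster of their own, so they were not analysed here.

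No change of the respiratory chain or the ATP synthase was detected in Abhd15 KO liver. Of the 91 genes, 0 passed an adjusted p of 0.05 in limma's test over all 23521 clusters with 1 symbol (smallest adjusted p 0.805), where 0 of the 23521 clusters passed (0%). At an unadjusted p under 0.05 there were 3 genes, all lower in KO, or 3.30% against 3.32% of all clusters that were lower at that p, 2.75% that were higher and 6.08% in either direction. They were Ndufab1, Uqcrq and Ndufaf7. With trend and robust settings in limma there were 4, of which 3 were lower: Ndufaf7, Ndufa11, Ndufa3 and, higher in KO, Atp5g2, without Ndufab1 and Uqcrq. Leaving out WT array 2, KO array 2 or KO array 4 brought the number to 0, and leaving out KO array 5 brought it to 5. The share of all clusters at that p was not counted in these settings, so these counts have no background beside them.

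The intervals limit how large a change of the measured signal could have gone unseen. The 95% confidence interval of the KO minus WT difference, taken for each gene by itself, lay within 1 log2 unit (2-fold) of 0 in either direction for 91 of 91 genes, against 94.6% of all clusters. It lay within 0.5 log2 units (1.41-fold) for 69 of them, or 75.8%, against 41.3% of all clusters. Among the 72 genes with a mean of at least 5 the narrower limit held for 64, or 88.9%, against 60.4% of the 7699 clusters at that level. Among the 19 genes with a mean under 5, down to 1.49, it held for 5. Whether these dim genes exceed background is unknown, so their intervals bound the signal and not a change of the transcript. The differences themselves ran from -0.36 to 0.34 with a median standard error of 0.13.

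More members were lower than higher in KO, and other clusters of similar level also had more lower than higher values. The KO mean was below the WT mean for 60 of 91 genes (65.9%), against 50.4% of all clusters, with a median difference of -0.05 against -0.0018. Among genes with a mean of at least 5 it was below for 53 of 72 (73.6%), against 59.9% of all clusters at that level, with medians of -0.07 and -0.04. Quantile normalization of the 8 columns gave 54 of 91, and leaving out KO arrays 1 and 2 gave 57 of 91. KO and WT arrays did not overlap for 5 genes, all lower in KO (5.49%), against 2.44% of all clusters lower without overlap and 4.43% without overlap in either direction. They were Ndufa11, Ndufa3, Ndufa2, Ndufb9 and Ndufaf7. All 5 had a mean of at least 5, and at that level 6.94% of the 72 genes and 4.22% of all clusters were lower without overlap. With all 8 arrays as deposited, no member had all KO arrays above all WT arrays, against 1.99% of all clusters. Fewer arrays leave less room for overlap, and these counts moved with them. With 1 array left out, 6 to 10 of 91 members were lower without overlap, against 3.38% to 5.61% of all clusters. The count was 10 without WT array 3, 9 without WT array 1 or KO array 5, and 8 without KO array 3. Without KO arrays 1 and 2 it was 13 of 91, against 6.17% of all clusters. The count of members higher without overlap was 0 to 2 when 1 array was left out, 2 without KO arrays 1 and 2, and 1 with arrays centred on their medians. The share of all clusters higher without overlap was not counted in these settings.

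**Figure D1:**
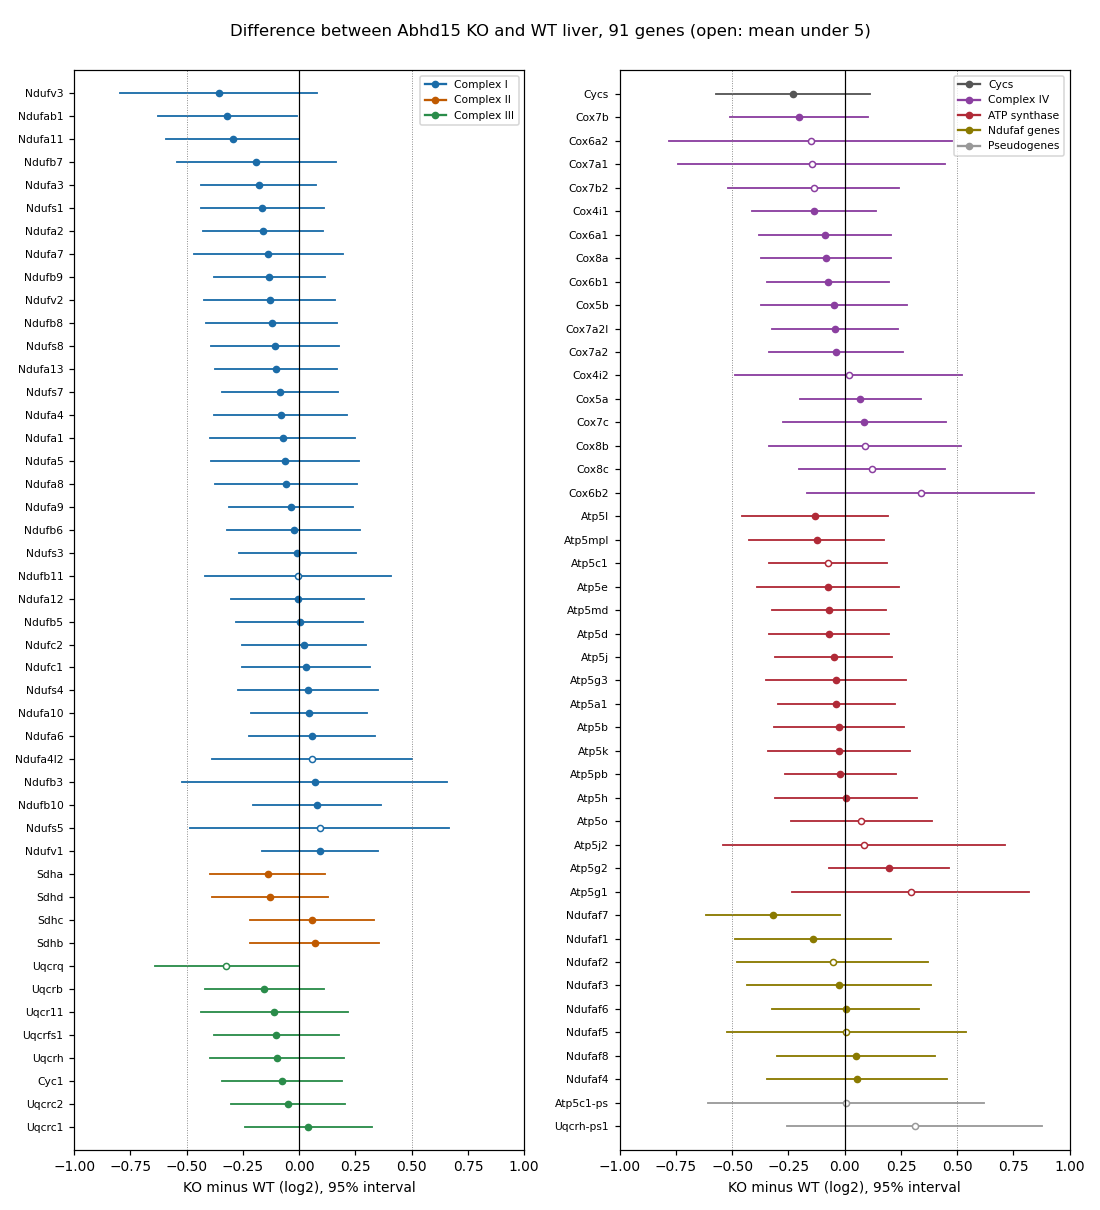
The KO minus WT difference (log2, x axis) of each of the 91 genes, with the limma 95% confidence interval as a line, coloured by complex; open points are genes with a mean under 5 and dotted lines stand at 0.5 log2 units either side of 0. All points lie between -0.36 and 0.34, and most of the intervals cross 0, with Ndufab1, Uqcrq and Ndufaf7 the exceptions.

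Nuclear genes of oxidative phosphorylation are known to be driven by a few factors with sites near the start of transcription, such as NRF1, the ETS factor GABPA, YY1 and the ERR receptors. Promoter windows of 300 bases, 250 before and 50 after the start, were found by symbol in RefSeq (GRCm38.p6) for 73 of the 89 genes that are not pseudogenes, and letters were searched on both strands. The NRF1 letters GCATGCGC were present in 13 of 73 (17.8%), against 4.06% of 16990 measured genes with a window and 3.05% of all 27025 genes with a window. The ETS letters CCGGAAG were in 26.0% against 12.7% of measured genes, the YY1 letters AAGATGGCG in 9.59% against 2.17%, and the ERR letters AAGGTCA in 8.22% against 4.67%. The TATA box letters TATAAA were in 10.96% against 14.3%. These are matches of letters, and binding was not measured.

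The stretches below show the NRF1 letters upstream of Cycs, of genes of complexes I, II, IV and V and of an assembly factor, all 5′ to 3′ on the gene's strand, with the matched letters in capitals. Where the letters lie on both strands the capitals span 10 bases. Atp5j carries the YY1 and ETS letters together and Uqcr11 the ETS letters. In order, the stretches lie at chr6:50566601-50566650 (minus strand), chr17:56717681-56717732 (plus), chr4:140961196-140961245 (plus), chr5:115349090-115349141 (minus), chr15:102671059-102671110 (minus), chr5:108434419-108434470 (minus), chr4:24897949-24898000 (plus), chr16:84835010-84835085 (minus) and chr10:80406860-80406908 (minus).
Cycs: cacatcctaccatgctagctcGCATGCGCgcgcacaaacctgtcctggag
Ndufa11: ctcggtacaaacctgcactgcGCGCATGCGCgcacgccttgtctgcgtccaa
Sdhb: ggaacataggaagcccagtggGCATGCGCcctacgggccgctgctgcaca
Cox6a1: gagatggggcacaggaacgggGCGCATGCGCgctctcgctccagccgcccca
Atp5g2: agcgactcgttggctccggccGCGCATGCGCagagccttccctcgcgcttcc
Atp5k: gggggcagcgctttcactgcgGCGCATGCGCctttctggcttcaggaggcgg
Ndufaf4: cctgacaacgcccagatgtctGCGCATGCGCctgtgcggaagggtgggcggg
Atp5j: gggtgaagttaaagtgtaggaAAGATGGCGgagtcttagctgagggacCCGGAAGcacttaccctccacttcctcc
Uqcr11: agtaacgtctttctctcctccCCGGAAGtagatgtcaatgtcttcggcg

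Genes with and without the letters covered overlapping ranges of the KO minus WT difference. Among the 13 genes with the NRF1 letters 7 were lower in KO, with a median difference of -0.02 and a range from -0.30 (Ndufa11) to 0.20 (Atp5g2), and among the 60 without them 42 were lower, with a median of -0.05. Of 19 genes with the ETS letters 16 were lower (median -0.07), against 33 of 54 without them (median -0.04). Of 7 with the YY1 letters 3 were lower (median 0.03), against 46 of 66 without them (median -0.06). Of 6 with the ERR letters 5 were lower (median -0.06), against 44 of 67 without them (median -0.05). Of 8 with the TATA box letters 7 were lower (median -0.13), against 42 of 65 without them (median -0.04). These groups were not tested against each other.

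**Figure D2:**
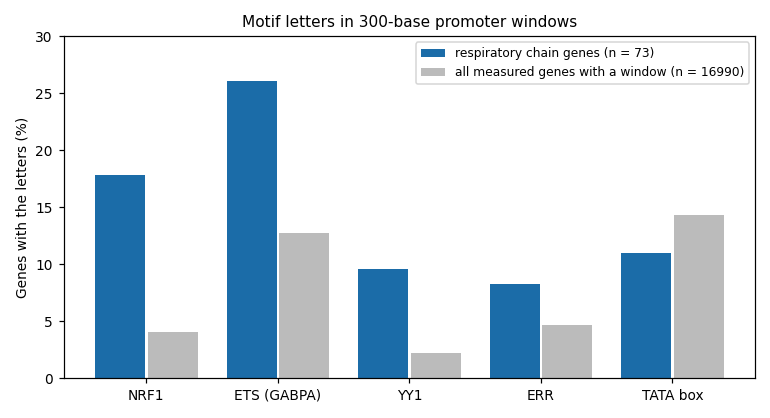
The share of genes (%, y axis) whose RefSeq promoter window holds each set of letters on either strand, for 73 respiratory chain genes (blue) and for 16990 measured genes with a window (grey). The NRF1 letters are in 17.8% and 4.06%, and the TATA box letters in 10.96% and 14.3%.

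Complex I is the NADH dehydrogenase and the largest complex of the chain. Of the 34 genes placed there by symbol 23 were lower and 11 higher in KO, with a median difference of -0.06, and 19 were lower after quantile normalization. The mean over all 34 was 7.45, 7.53 and 7.51 in WT and 7.39, 7.43, 7.43, 7.43 and 7.49 in KO, and KO array 5 overlapped with WT. The nuclear-encoded core subunits that carry the flavin and the iron-sulfur clusters had differences from -0.16 (Ndufs1, SE 0.12) to 0.09 (Ndufv1, SE 0.12), with Ndufv2 at -0.13, Ndufs8 at -0.11, Ndufs7 at -0.08 and the core subunit Ndufs3 at -0.0081.

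Ndufab1, the mitochondrial acyl carrier protein, which serves fatty acid synthesis in the matrix and is also a subunit of complex I, read 5.75, 5.66 and 5.45 in WT and 5.18, 5.23, 5.23, 5.30 and 5.56 in KO. KO arrays 1 to 4 lay below all WT arrays and KO array 5 lay among them. The difference was -0.32 (SE 0.14, adjusted p = 0.819 with limma, exact permutation p = 0.0536), and -0.26 without KO arrays 1 and 2. Ndufa11, an accessory subunit of the membrane arm, read 8.14, 8.24 and 8.25 in WT and 8.07, 7.94, 7.81, 7.69 and 8.06 in KO. The groups did not overlap, although KO arrays 1 and 5 came close to the lowest WT array. The difference was -0.30 (SE 0.13, adjusted p = 0.826), and the dimmer cluster of the gene, at a mean of 4.05, gave -0.34 (SE 0.20) with overlapping groups.

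The other complex I genes without overlap had small differences and a narrow spread. Ndufa3 read 10.11, 10.18 and 10.19 in WT and 10.02, 10.04, 9.997, 9.87 and 9.97 in KO, a difference of -0.18 (SE 0.12). Ndufb9 read 11.01, 11.05 and 11.04 in WT and 10.86, 10.89, 10.88, 10.91 and 10.95 in KO, a difference of -0.13 (SE 0.11). Both are accessory subunits, and the two-sided exact permutation p was 0.0179 for each, the lowest p possible over 56 splits, with adjusted p of 0.871 and 0.892 in limma. Both were named because their arrays do not overlap, which already makes the observed split the most extreme in its direction. The permutation p therefore adds no support. Ndufa2, an accessory subunit of the matrix arm, read 8.20, 8.21 and 8.20 in WT and 8.14, 8.08, 8.07, 7.87 and 8.07 in KO, a difference of -0.16 (SE 0.12). Its WT arrays lay within a standard deviation of 0.0035, while KO array 4 lay well below the other KO arrays.

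Among genes higher in KO, Ndufv1, the NADH-binding flavoprotein, read 8.69, 8.78 and 8.71 in WT and 8.91, 8.86, 8.72, 8.80 and 8.83 in KO, a difference of 0.09 (SE 0.12). Ndufb10, an accessory subunit, had a difference of 0.08 (SE 0.13). The groups overlapped for both genes. The 95% intervals of Ndufv1 (-0.16 to 0.35) and Ndufs1 (-0.44 to 0.11) place the difference of these core subunits below 0.5 log2 units either way. Ndufv3, a small accessory subunit near the NADH site, had the lowest difference of all members at -0.36 (SE 0.20), with 6.25, 6.46 and 6.67 in WT and 6.58, 6.25, 5.99, 5.69 and 6.00 in KO. Its KO arrays spread over most of a log2 unit and overlapped with WT, and it is named after its values were seen.

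**Figure D3:**
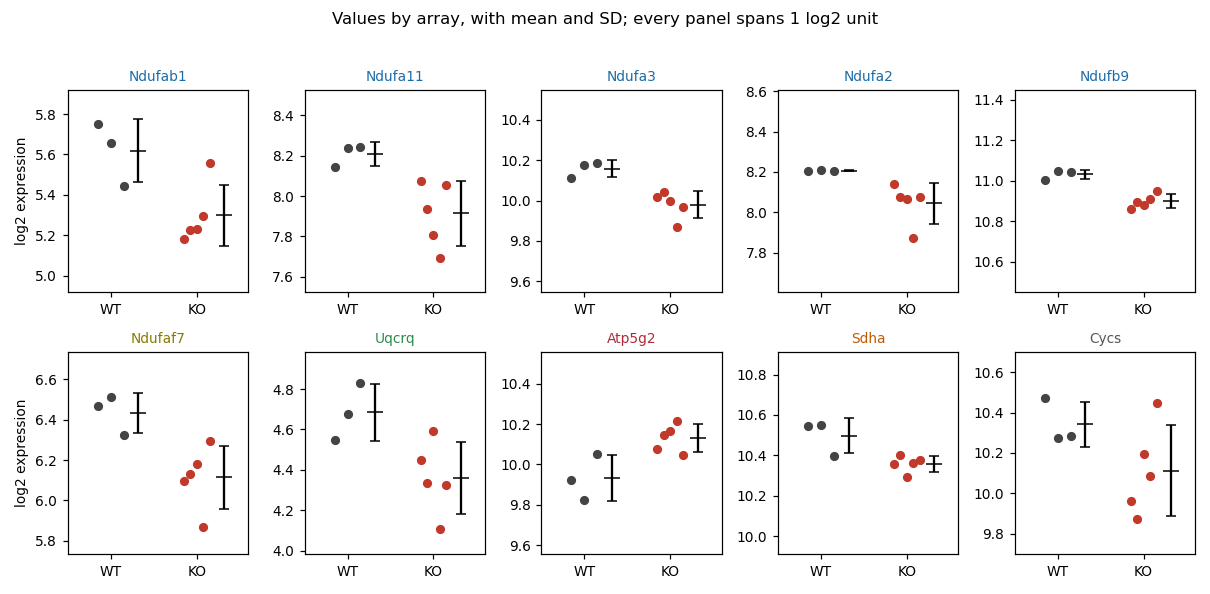
Log2 expression (y axis, each panel spanning 1 log2 unit) of 10 genes in the 3 WT and 5 KO arrays, with the mean and SD beside the points; KO points run from array 1 to 5 from left to right. Ndufa11, Ndufa3, Ndufa2, Ndufb9 and Ndufaf7 have all KO points below all WT points, whereas Cycs and Uqcrq overlap.

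Complex II, the succinate dehydrogenase, is also an enzyme of the citrate cycle. Its 4 genes were divided, 2 lower and 2 higher. Sdha, the flavoprotein that holds the active site, read 10.55, 10.55 and 10.40 in WT and 10.36, 10.40, 10.30, 10.36 and 10.38 in KO. The difference was -0.14 (SE 0.12, adjusted p = 0.892 with limma, exact permutation p = 0.0357). Of the KO arrays only array 2 reached the lowest WT value. Sdhd, a membrane anchor, read 9.23, 9.18 and 9.08 in WT and 9.10, 8.99, 9.01, 9.09 and 8.98 in KO, a difference of -0.13 (SE 0.12), with overlap at the lowest WT array.

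Sdhb, the iron-sulfur subunit, read 8.99, 8.92 and 8.88 in WT and 8.94, 8.99, 8.93, 9.25 and 8.89 in KO, a difference of 0.07 (SE 0.13). KO array 4 alone lay above the WT range, and the difference was 0.0071 without it. Sdhc, the other anchor, read 8.19, 8.24 and 8.29 in WT and 8.43, 8.15, 8.41, 8.25 and 8.26 in KO, a difference of 0.06 (SE 0.12). All 4 intervals lay within 0.5 log2 units of 0, the widest lower bound being -0.40 (Sdha) and the highest upper bound 0.36 (Sdhb).

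Complex III, which hands electrons from ubiquinol to cytochrome c, had 7 of 8 genes lower and a median difference of -0.10. Its array means were 7.97, 8.01 and 7.96 in WT and 7.87, 7.90, 7.92, 7.73 and 7.94 in KO, with every KO array below every WT array and KO array 4 lowest. With the 7 genes that have a mean of at least 5 the groups overlapped, from 8.40 to 8.48 in WT and from 8.25 to 8.45 in KO. The count was 7 of 8 after quantile normalization and 8 of 8 without KO arrays 1 and 2.

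The gene set aside by that level limit was Uqcrq, a small ubiquinone-binding subunit, which read 4.55, 4.68 and 4.83 in WT and 4.45, 4.34, 4.59, 4.11 and 4.33 in KO. KO array 3 lay within the WT range and the other KO arrays below it. The difference was -0.32 (SE 0.14, adjusted p = 0.82 with limma), with a 95% interval from -0.64 to -0.0043. Uqcrb, another small subunit, read 10.73, 10.71 and 10.69 in WT and 10.54, 10.55, 10.54, 10.44 and 10.70 in KO, a difference of -0.15 (SE 0.12), with KO array 5 within the WT range.

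The other subunits of complex III named here had differences from -0.10 to 0.04. Cyc1, which carries cytochrome c1, had a difference of -0.08 (SE 0.12), Uqcrfs1, the Rieske iron-sulfur protein, one of -0.10 (SE 0.13), and the core protein Uqcrc2 one of -0.05 (SE 0.11). The other core protein, Uqcrc1, was the 1 gene of the complex with a higher KO mean. It read 9.53, 9.59 and 9.53 in WT and 9.68, 9.69, 9.60, 9.35 and 9.63 in KO, a difference of 0.04 (SE 0.13). KO array 4 lay below all other arrays, and the remaining KO arrays lay above the WT arrays.

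Cycs encodes cytochrome c, the soluble carrier between complexes III and IV. It read 10.47, 10.27 and 10.28 in WT and 9.96, 9.87, 10.20, 10.09 and 10.45 in KO, a difference of -0.23 (SE 0.15, adjusted p = 0.874 with limma, exact permutation p = 0.161). KO arrays 1 and 2 were the lowest and KO array 5 lay near the highest WT array. Without KO arrays 1 and 2 the difference was -0.10. Of the 4 other clusters named Cycs, 2 held identical values in every array, and their differences lay between -0.19 and -0.08. Cycs has processed copies in the genome, so its clusters may share signal.

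Complex IV, cytochrome c oxidase, had 11 of 17 genes lower and a median difference of -0.05, and its array means overlapped, at 6.24, 6.09 and 6.14 in WT and 6.04, 6.20, 6.17, 6.13 and 6.11 in KO. Cox7b, a small subunit, read 8.88, 8.93 and 8.80 in WT and 8.92, 8.75, 8.68, 8.49 and 8.49 in KO, a difference of -0.20 (SE 0.14), and of -0.31 without KO arrays 1 and 2. KO array 1 lay within the WT range and the other KO arrays below it. Another cluster of the gene, dim at a mean of 2.72, gave a difference of 0.68 (SE 0.23, adjusted p = 0.795 with limma) with all KO arrays above all WT arrays, so the clusters of Cox7b disagree.

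Several complex IV subunits exist as isoforms that differ between tissues. Cox4i1, the common form of subunit 4, read 9.53, 9.49 and 9.38 in WT and 9.39, 9.48, 9.34, 9.17 and 9.29 in KO, a difference of -0.14 (SE 0.12), with overlapping groups. Cox4i2, the form known from lung, read 2.93, 2.84 and 2.80 in WT and 2.61, 2.41, 2.93, 3.56 and 2.86 in KO, a difference of 0.02 (SE 0.23). The values of Cox4i2 lay around the array medians, so whether they rise above background is unknown.

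The other tissue isoforms were likewise dim. Cox6a1, the liver form, read 11.52, 11.53 and 11.56 in WT and 11.37, 11.52, 11.61, 11.21 and 11.54 in KO, a difference of -0.09 (SE 0.13). Its heart and muscle counterpart Cox6a2 read 3.28 to 3.72 in WT and 2.73 to 4.04 in KO, a difference of -0.15 (SE 0.28). Cox7a2, the form found in liver, had a difference of -0.04 (SE 0.14) and the muscle form Cox7a1 one of -0.15 (SE 0.27), at a mean of 4.08. Cox8a, the common form, had a difference of -0.08 (SE 0.13), and Cox8b, known from muscle and brown fat, one of 0.09 (SE 0.19) at a mean of 2.54.

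Cox6b1, the common form of its subunit, read 8.85, 9.06 and 8.90 in WT and 8.89, 8.94, 8.96, 8.74 and 8.80 in KO, a difference of -0.07 (SE 0.12). Cox6b2, known from testis, read 3.66, 2.58 and 2.84 in WT and 3.24, 3.43, 3.67, 3.20 and 3.28 in KO. Its difference of 0.34 (SE 0.23) was the highest of all members, at a mean of 3.24 and with WT array 1 among the KO arrays. Leaving out WT array 1 gave 0.65, and leaving out WT array 2 gave 0.12. Cox8c, another testis form, had a difference of 0.12 (SE 0.15) at a mean of 1.98. In each of these isoform pairs the WT and KO arrays overlapped.

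The ATP synthase, complex V, had 12 of 17 genes lower and a median difference of -0.04. Its array means were 7.94, 8.03 and 8.06 in WT and 7.98, 8.08, 7.995, 7.94 and 8.04 in KO, which overlapped throughout. The catalytic head subunits differed little. Atp5b, the beta subunit, read 11.50, 11.47 and 11.45 in WT and 11.49, 11.52, 11.51, 11.18 and 11.55 in KO, a difference of -0.03 (SE 0.13), with KO array 4 alone below the other arrays. Atp5a1, the alpha subunit, had a difference of -0.04 (SE 0.12) and Atp5c1, the gamma subunit, one of -0.08 (SE 0.12).

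Atp5g2, 1 of several genes for the same c subunit of the rotor ring, had the smallest p among members with a higher KO mean. It read 9.92, 9.83 and 10.05 in WT and 10.08, 10.15, 10.17, 10.22 and 10.05 in KO, a difference of 0.20 (SE 0.12, adjusted p = 0.868 with limma, exact permutation p = 0.0357). KO array 5, at the value of WT array 3, was the only KO array within the WT range. Its other cluster gave the same difference of 0.20 (SE 0.13). Of the other c subunit genes, Atp5g1 had a difference of 0.29 (SE 0.24) at a mean of 3.94, and Atp5g3 one of -0.04 (SE 0.14). Among the small membrane subunits, Atp5l and Atp5mpl had differences of -0.13 (SE 0.15) and -0.13 (SE 0.14), each with overlapping groups.

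The Ndufaf assembly factors of complex I had 4 of 8 genes lower and a median difference of -0.01. Ndufaf7, a methyltransferase needed for assembly, read 6.47, 6.51 and 6.32 in WT and 6.10, 6.13, 6.18, 5.87 and 6.30 in KO. All KO arrays lay below all WT arrays, KO array 5 just so. The difference was -0.32 (SE 0.14), with the smallest unadjusted p of the 91 genes (0.0388) and an adjusted p of 0.805 in limma, and it was -0.32 also without KO arrays 1 and 2.

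The other named Ndufaf genes had overlapping groups. Ndufaf4 read 6.98, 6.65 and 6.91 in WT and 6.76, 6.51, 6.92, 6.997 and 7.31 in KO, a difference of 0.05 (SE 0.18). Ndufaf1 had a difference of -0.14 (SE 0.16) and Ndufaf8 one of 0.05 (SE 0.16). The mean over the 8 Ndufaf genes was 5.73, 5.62 and 5.64 in WT and 5.45, 5.55, 5.58, 5.58 and 5.89 in KO, with KO array 5 the highest of all. Without KO array 5, 8 of 8 Ndufaf genes were lower.

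The KO livers differed among themselves. KO array 4 was the lowest of the 8 arrays for 29 of the 72 genes with a mean of at least 5 and the highest for 13. Its median deviation from the WT mean over those genes was -0.13, and over all 7699 clusters at that level it was -0.12. KO array 1 had a median deviation of -0.09 over the genes and -0.03 over the clusters. KO array 5 had 0.0080 over both. The genes most variable within the groups, at a mean of at least 5, were Ndufb3, with a residual SD of 0.44, and Ndufv3, with 0.30. The median residual SD of the 72 genes was 0.13, against 0.18 for all clusters at that level.

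**Figure D4:**
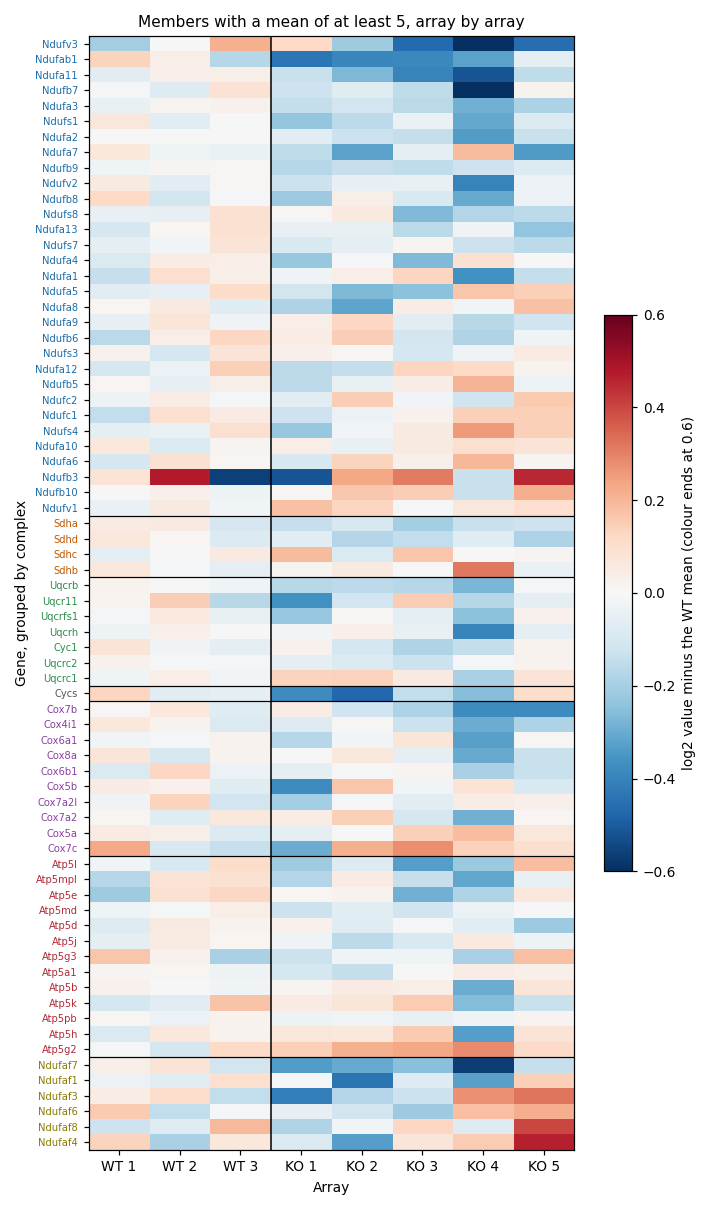
The log2 value minus the WT mean (colour, ending at 0.6 either way) of the 72 genes with a mean of at least 5 (rows, grouped by complex) in the 8 arrays (columns). KO array 4 holds the lowest value in 29 rows, and KO array 5 lies close to WT with a median deviation of 0.0080.

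Other genes of the pathway were counted from lists that share no member with the 91 genes. Of 36 measured assembly factors of complexes II to V and of complex I outside the Ndufaf names, 31 were lower in KO and 5 higher, with a median difference of -0.13, against 50.4% lower among all clusters and 59.9% among those with a mean of at least 5. At an unadjusted p under 0.05 there were 0, and the smallest adjusted p was 0.841 in limma. The list mean was 6.17, 6.17 and 6.18 in WT and 6.01, 6.03, 6.02, 6.01 and 6.20 in KO, so that KO arrays 1 to 4 lay below WT and KO array 5 above. Quantile normalization gave 24 of 36 lower with a median of -0.09, and leaving out KO arrays 1 and 2 gave 23 of 36 with a median of -0.14.

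The lowest difference on that list was that of Atpaf2, which assembles the ATP synthase head, at -0.38 (SE 0.20). Cox17, the copper chaperone of complex IV, had a difference of -0.27 (SE 0.17). KO and WT arrays did not overlap for these 2 of the 36 genes. Of all clusters 2.44% were lower without overlap, and 4.22% of those with a mean of at least 5. Uqcc3, an assembly factor of complex III, had the highest difference at 0.27 (SE 0.14). These 3 were named after their values were seen.

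Of 17 measured regulators of mitochondrial genes 9 were lower and 8 higher, with a median difference of -0.0025 and 0 at an unadjusted p under 0.05. Ppargc1a, the coactivator PGC-1 alpha, had a difference of 0.01, Nrf1 one of -0.0025, Gabpa one of -0.07 (SE 0.14), Esrra one of -0.04 and Tfam, which packages and transcribes mitochondrial DNA, one of -0.07 (SE 0.14). Yy1 had a difference of 0.16 (SE 0.12) with all KO arrays above all WT arrays, the 1 regulator without overlap. Of all clusters 1.99% were higher without overlap. In the citrate cycle 8 of 12 genes were lower (median -0.07), and among 8 measured partners of the ATP synthase 3 were lower and 5 higher (median 0.06), again with 0 at an unadjusted p under 0.05 in limma. Atpif1, the inhibitor of the ATP synthase, had a difference of 0.22 (SE 0.19), and Slc25a4, an ADP/ATP carrier of muscle and heart, one of 0.41 (SE 0.22) at a mean of 4.22.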

How the data were processed

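Liver RNA (200 ng) from 3 WT and 5 KO mice was labelled with biotin and hybridised to Mouse Gene 2.0 ST arrays, per the labels' protocols. The authors deposited log2 expression values for 41345 transcript clusters. Per the submitters' processing notes RMA and oligo were used, and the design text names Expression Console; neither source states versions, filters or a genome build. RMA is known to compress differences of dim clusters. That the scale is log2 was read from the range, 0.409 to 13.27. Slides and scan dates were not among the labels, and batches were not tested.

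Of the clusters, 23521 have 1 gene symbol in the platform annotation, 1814 several and 16010 are unnamed here; 10 clusters that name one of these genes beside another were kept out of the counts. KO minus WT was fitted with limma 3.58.1 in R 4.3.3 (lmFit, eBayes without trend) on all 8 arrays, with p-values adjusted by Benjamini-Hochberg over these clusters and a threshold of 0.05. Adjusted p-values and SEs are limma's, and exact permutation tests of single genes are two-sided over 56 splits. The fit was tested on simulated data. The number of arrays limits the precision. The genes, lists and alternatives were chosen with earlier results of these data known. Genes were named by rule: Cycs, the Sdh genes, the isoform pairs, per complex and for the Ndufaf genes the 2 higher and 2 lower members with the smallest p, and members without overlap; core, catalytic and other pathway genes beyond that rule were named after their values were seen. Promoter windows are RefSeq's.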

Additional observations from a re-analysis of the deposited data

Results flagged for a closer look

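In 3 of 42 sets of 5 KO values examined (35 named genes, Abhd15 and 6 means over a complex or the Ndufaf genes), 1 KO array lay far from the others, its gap to the nearest exceeding 0.71 of the range; chance gives about 1 in 20 such sets. All 3 were KO array 4. Ndufa2 read 7.87 there against 8.07 in the nearest KO array. Uqcrc1 read 9.35 against 9.60, and Sdhb, which lay above the others, read 9.25 against 8.99. KO array 4 also stood apart on the second principal component of all clusters.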

How the results depend on the processing

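Over 19 alternatives, chosen with earlier results known, 0 members passed the adjusted threshold in any setting that gave one, and Abhd15 kept its sign. The count of all clusters past it was 3 with trend and robust settings, 1 among clusters with a mean of at least 5, 3 with all clusters fitted together and 1 with the replicate number as a block, against 0. The count of members with an unadjusted p under 0.05 was 1 with arrays centred on their medians, 0 after quantile normalization and 1 without KO arrays 1, 2 and 4 (an alternative added after seeing the data), and 0 to 5 without single arrays. The share of all clusters at that p was not counted in these alternatives. The median difference of complex I ran from -0.099 to -0.038 without single arrays, and that of complex II was -0.092 without KO arrays 1, 2 and 4. Without single arrays the median ran from -0.12 to -0.062 in complex III, from -0.092 to -0.027 in complex IV, from -0.078 to -0.020 in complex V and from -0.078 to 0.046 for the Ndufaf genes, whose sign turned. The lowest and highest arose without KO arrays 2 and 4 (III), without KO array 2 and WT array 3 (IV), without WT array 1 and KO array 4 (V), and without KO arrays 5 and 1 (Ndufaf). Complex IV gave -0.013 without KO arrays 1 and 2, and complex V 0.0078 without KO arrays 1, 2 and 4. Members lower in KO numbered 52 to 66, and 56 without the Ndufaf genes.

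Of 35 named members 13 changed sign in some setting. The replicate block gave -0.21 for Cox4i2, 0.027 for Cox7a2, 0.0040 for Cox8a, -0.12 for Ndufaf4 and -0.024 for Ndufaf8. Without KO arrays 1 and 2, Cox8c gave -0.013 and Uqcrc1 -0.023. Without KO arrays 1, 2 and 4, Cox6a1 gave 0.039, Cox8c -0.062, Ndufaf1 0.033 and Sdhb -0.021. The mean over its clusters gave 0.24 for Cox7b. Without single arrays, Cox4i2 ran from -0.15 to 0.13, Cox6a2 from -0.31 to 0.013, Cox7a2 from -0.085 to 0.023, Cox8b from -0.030 to 0.26, Ndufaf4 from -0.049 to 0.15 and Ndufaf8 from -0.037 to 0.15. The cause was not tested. Same-numbered WT and KO arrays share only a number in the labels. Their deviations from the group means correlated at -0.14, 0.073 and 0.060 over 7699 clusters, and those of differently numbered arrays at -0.16 to 0.16. With so few arrays these correlations cannot decide whether animals were paired. No detection calls were used, so whether dim members exceed background is unknown; of the 19 with a mean under 5, the highest mean was 4.84 (Atp5c1).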
